A study of Homo sapiens with 23 samples.

Results

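Broad H3K9me3 domains were long stretches of the genome that carried trimethylated lysine 9 of histone H3 in untreated SCi-NCCIT cells. The members were chosen by the peaks of both no doxycycline libraries. They were found by joining the H3K9me3 peaks of no doxycycline replicate 2 that lay 1 kb or less apart and keeping joined regions of 5 kb or more that overlapped a peak of no doxycycline replicate 1 and lay outside the zinc finger (ZNF) genes of chromosome 19. Of 105338 joined regions, 8138 met the rule, which was 7.73%. Of the 8386 regions of sufficient length, 9 had no replicate 1 peak and 239 touched a chromosome 19 ZNF gene. The 8105 domains on assembled chromosomes are described below, and 33 on other contigs were left out.

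NCCIT is a human embryonal carcinoma line. SCi-NCCITs are NCCIT cells with piggyBac insertions of a dCas9-KRAB repressor, switched on by doxycycline and kept under puromycin. They also carry piggyBac insertions of 2 constitutive guide RNAs, kept under geneticin. The paper states that the guides target SVA retrotransposons and also the LTR5Hs family of transposable elements. H3K9me3 was profiled by ChIP-seq in NCCIT without doxycycline (1 library), in SCi-NCCITs without doxycycline (2 libraries) and in SCi-NCCITs given 2 µg/mL doxycycline for 72 hours (2 libraries). YY1 was profiled in 2 libraries and OCT4 in 1 library of each SCi-NCCIT condition, and RNA-seq was made from 3 libraries of each. Both SCi-NCCIT conditions carried the repressor and the guides, and no library received doxycycline without guides or repressor. The effect of doxycycline itself and that of the induced repressor cannot be told apart, and differences between NCCIT and SCi-NCCITs may come from clone selection, which was not tested. The depth of the ChIP-seq libraries is unknown from the peak lists, and the RNA libraries held 14683468 to 47862394 estimated counts. All 11 embryonal carcinoma markers on a chosen list were at 1 TPM (a length-scaled expression level) or more in untreated cells, as were 5 of 7 seminoma and germ cell, 0 of 7 endoderm, 2 of 7 trophoblast and 7 of 7 fibroblast markers. None of these markers had a transcription start site (TSS) inside a domain, and 1 fibroblast marker gene overlapped a domain with its body.

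H3K9me3 is written by methyltransferases such as SETDB1 and SUV39H1 and is bound by HP1 proteins, which compact chromatin. It marks satellite repeats around centromeres, many retrotransposons and arrays of related genes. KRAB zinc finger proteins bind retrotransposon sequences and recruit TRIM28 and SETDB1, and the KRAB domain of dCas9-KRAB recruits the same enzymes to the guides' targets.

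Sequences of the domains fell into recognisable kinds, and examples are shown because the results below turn on them. The longest domain, on chromosome 7, and the second longest, on chromosome 5, were built from tandem units of 171 and 172 bp, as in centromeric alpha satellite DNA. Adjacent units are printed on hg19, 5′ to 3′, with capitals for bases identical to the other unit of the pair.
chromosome 7 unit 1, chr7:62032984-62033154, plus strand: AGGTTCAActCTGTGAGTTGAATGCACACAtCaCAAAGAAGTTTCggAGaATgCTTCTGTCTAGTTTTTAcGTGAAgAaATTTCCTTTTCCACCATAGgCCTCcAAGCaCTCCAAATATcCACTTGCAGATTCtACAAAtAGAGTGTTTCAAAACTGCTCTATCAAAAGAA
chromosome 7 unit 2, chr7:62033155-62033325, plus strand: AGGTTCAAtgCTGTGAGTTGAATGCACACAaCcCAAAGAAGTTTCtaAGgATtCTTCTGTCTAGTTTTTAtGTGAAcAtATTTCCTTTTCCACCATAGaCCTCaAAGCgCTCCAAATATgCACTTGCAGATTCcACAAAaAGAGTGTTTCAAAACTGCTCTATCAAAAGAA
chromosome 5 unit 1, chr5:46119832-46120003, plus strand: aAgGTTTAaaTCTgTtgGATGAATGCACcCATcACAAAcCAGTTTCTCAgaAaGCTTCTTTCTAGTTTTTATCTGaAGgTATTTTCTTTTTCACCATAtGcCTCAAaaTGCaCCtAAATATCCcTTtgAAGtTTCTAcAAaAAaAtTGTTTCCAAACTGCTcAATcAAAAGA
chromosome 5 unit 2, chr5:46120004-46120175, plus strand: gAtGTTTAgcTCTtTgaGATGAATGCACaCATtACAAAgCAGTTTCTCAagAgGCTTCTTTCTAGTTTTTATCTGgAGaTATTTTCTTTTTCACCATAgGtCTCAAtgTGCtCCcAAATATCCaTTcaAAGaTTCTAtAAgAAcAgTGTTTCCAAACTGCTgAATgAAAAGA
The chromosome 7 units matched at 154 of 171 positions (90.1%) and the chromosome 5 units at 141 of 172 (82%). These were the best matched adjacent pairs found in the first 20 kb of each domain. Over that stretch, bases separated by the same period were identical at 49.7% of positions on chromosome 7 and 42.7% on chromosome 5. Another kind was the short tandem repeat of the chromosome 21 domain chr21:10772852-10860889, in which capitals mark copies of AATGG, the motif of classical human satellites.
chromosome 21 repeat, chr21:10819582-10819701, plus strand: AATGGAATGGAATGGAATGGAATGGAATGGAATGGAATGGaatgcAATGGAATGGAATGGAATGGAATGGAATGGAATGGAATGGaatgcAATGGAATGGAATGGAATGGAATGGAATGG
This stretch of 120 bases held 22 copies, and the whole domain held 6959 on the plus strand and 1 on the minus strand.

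A further kind was dispersed sequence. The 24-mers held by at least 100 domains, and by a share of domains at least 3 times that of 7 kb tiles of the genome, were reduced to 8 named S1 to S8. From general knowledge of these elements, S1 reads as part of the second open reading frame of the LINE L1, S6 as an upstream part of L1, and S4 as the SINE-R part of SVA, which is shared with the HERV-K long terminal repeat LTR5. No repeat annotation was used here, but 299 of 635 SVAs listed by the submitters as de-repressed (47.1%) held S4, and none of them held any of the other 7.

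The domains were mostly short and numerous. They spanned 70.2 Mb, or 2.45% of the 2859 Mb of sequenced bases, and held 33.2% of all peak bases of no doxycycline replicate 2 and 19.8% of its peaks. Their median length was 6916 bp (interquartile range 5773 to 9055 bp), and the longest reached 334649 bp. Between 5 and 7.5 kb lay 4803 domains (59.3%), between 7.5 and 10 kb 1714 (21.1%), between 10 and 20 kb 1332 (16.4%), between 20 and 50 kb 219 (2.7%), and at 50 kb or more 37 (0.457%). The median domain joined 4 peaks, and 443 (5.47%) were a single peak. At the length limit, the 5 shortest members measured 5000 bp in 4 cases and 5001 bp in 1, and the longest regions left out measured 4999 bp in 4 cases and 4998 bp in 1. The median fold enrichment of a domain's strongest peak, as the deposited lists give it, was 9.64, against 4.35 over all peaks of that library, as values that the choice of members favoured.

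**Figure D1:**
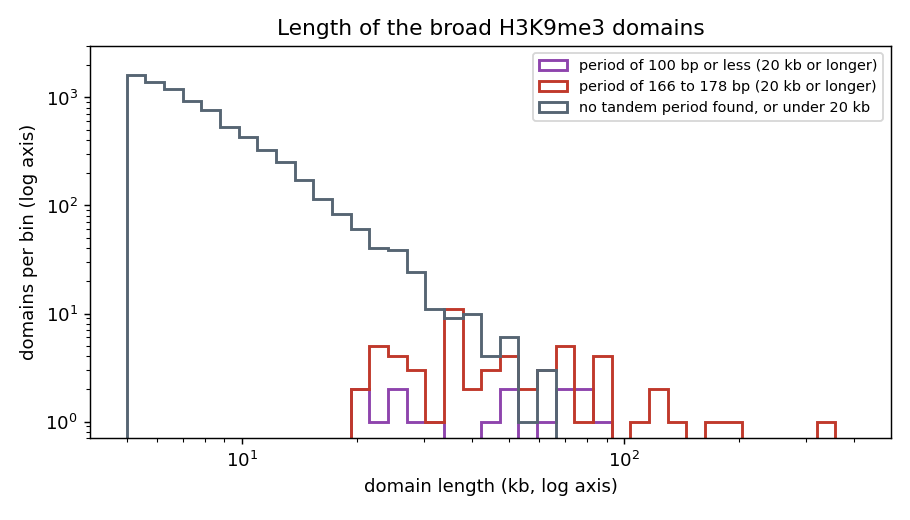
Number of domains per length bin (log axis) against domain length (kb, log axis) on assembled chromosomes, split for domains of 20 kb or longer into those with a period of 166 to 178 bp, those with a period of 100 bp or less, and the rest. Most of the 8105 domains lie just above the 5 kb limit, and the longest are mainly of the 166 to 178 bp kind.

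Density differed between chromosomes. Across assembled chromosomes there were 2.84 domains per Mb of sequenced bases. Chromosome 12 held 4.18 per Mb, X 4.04, 5 3.94, 6 3.72 and 2 3.58. The lowest densities were 0.522 per Mb on Y, 0.946 on 22 and 1.39 on 16. Reads that map to several places were removed by the mapping quality limit, and its part in these densities was not tested.

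Most of the largest domains lay near centromeres. Of the 37 domains of 50 kb or more, 31 lay within 5 Mb of the longest run of unsequenced bases of their chromosome, which marks the centromere on most chromosomes of hg19, and 23 repeated with a period of 166 to 178 bp. Of all domains, 801 (9.88%) lay within that distance, with 15.7% of domain bases against 7% of sequenced bases. Among the 256 domains of 20 kb or more, 57 had the 166 to 178 bp period, 16 had a shorter period and 183 had neither. Periods were read in the first 20 kb of each domain only. The minimum identity was 33% for the 166 to 178 bp period and 45% for shorter ones. The lowest identity among the 57 was 36.5%, and the highest among the 183 was 36.1%. The 57 covered 3.43 Mb, all of them were within 5 Mb of the longest gap, and 2 held a TSS. Of the 183 without a period, 72 held a TSS.

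Most bases of the 10 longest domains lay in peaks in each H3K9me3 library, and in 8 of the 10 the lowest share was that of doxycycline replicate 1. The longest, chr7:62031134-62365782, was covered by peaks over 97.2% of its bases in no doxycycline replicate 2, 97.8% in replicate 1, 90.1% in doxycycline replicate 1, 95.2% in doxycycline replicate 2 and 91.2% in NCCIT. The chromosome 5 domain chr5:46117032-46314735 of 197704 bp was covered over 97, 96.3, 86.1, 95 and 93.1% in the same order. The X chromosome domain chrX:58319197-58494672 of 175476 bp and the chromosome 12 domain chr12:38289808-38423349 of 133542 bp had no value under 88.9%. Lower shares were seen in chr8:43427788-43548160 (76.2% in doxycycline replicate 1 and 81.4% in NCCIT), chr10:42404265-42524446 (76.2% in doxycycline replicate 1) and chr12:38184379-38288499 (78.7% in doxycycline replicate 1). The chromosome 21 repeat of 88038 bp was covered over 99.2% or more of its bases in all 5 libraries. The strongest peak by fold enrichment in no doxycycline replicate 2 was in chr2:92314908-92326269, with a fold of 96.5 there, 93.3 in no doxycycline replicate 1, 126.7 and 22.1 in doxycycline replicates 1 and 2, and 94 in NCCIT. The low value of this domain was that of doxycycline replicate 2, in which 100% of its bases were still covered. The other 4 of highest fold were chr17:22236817-22262800 (62.4), chr8:46839611-46857674 (62.4), chr8:43818702-43828424 (46.9) and chr18:104589-112505 (45.4), which held the start of the pseudogene ROCK1P1, and their folds in the other libraries lay between 27.3 and 113.9.

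Coverage in the other H3K9me3 libraries was used to ask how stable the domains were. No doxycycline replicate 2 had 181332 peaks over 182.1 Mb, no doxycycline replicate 1 151492 over 181.4 Mb, doxycycline replicate 1 123014 over 116.7 Mb, doxycycline replicate 2 173423 over 175.5 Mb and NCCIT 157136 over 136.6 Mb. Peaks covered 86.3% of domain bases in no doxycycline replicate 2 and 78% in replicate 1, the libraries that chose the members. They covered 58.6% in doxycycline replicate 1, 78.8% in doxycycline replicate 2 and 64.9% in NCCIT. Doxycycline replicate 1, with the fewest peaks, was the lowest, and the doxycycline libraries lay on either side of no doxycycline replicate 1. Outside the domains, peaks covered 4.36, 4.54, 2.71, 4.31 and 3.26% of the genome in the order no doxycycline replicates 2 and 1, doxycycline replicates 1 and 2, and NCCIT. Coverage of the domains was therefore 19.8, 17.2, 21.6, 18.3 and 19.9 times that of the rest of the genome in the same order. With the 123014 strongest peaks of each library, and domains rebuilt from them, doxycycline replicate 1 was still the lowest at 64.5%. No doxycycline replicate 1 was then at 81.9%, doxycycline replicate 2 at 81.7% and NCCIT at 68.1%. A value lower than that of no doxycycline replicate 2 follows in part from the rule, which chose the domains on it, and the peak lists hold no read depth, so a loss with doxycycline was not measured by these shares.

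Single domains followed the same order. At least 50% of the bases were covered in 7344 domains in no doxycycline replicate 1, 4896 (60.4%) in doxycycline replicate 1, 7622 (94%) in doxycycline replicate 2 and 5932 (73.2%) in NCCIT. In both doxycycline libraries 4854 domains (59.9%) were at least 50% covered, while 2768 (34.2%) reached it in replicate 2 alone, 42 (0.518%) in replicate 1 alone and 441 (5.44%) in neither. All 5 libraries covered at least 50% of 4398 domains (54.3%), and some peak of all 5 was found in 7992 (98.6%). Coverage under 10% was seen in 27 domains in no doxycycline replicate 1, 233 in doxycycline replicate 1, 2 in doxycycline replicate 2 and 78 in NCCIT. The domain with the lowest coverage over both doxycycline libraries was chrX:16513471-16519001, at 66% and 15.7% in no doxycycline replicates 2 and 1, 0% and 5.17% with doxycycline and 19.3% in NCCIT. Its strongest no doxycycline replicate 2 peak had a fold of 4.35, equal to the median of all peaks. The next lowest were chrX:126956547-126961600 (5.92 and 6.61% with doxycycline), chrX:89186557-89191597 (0 and 13%), chr3:175550435-175556490 (0 and 13.6%) and chr12:103818793-103824959 (0 and 14.2%), and NCCIT covered 16.4 to 62.3% of them.

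Coverage rose with domain length. In doxycycline replicate 1 it was 53.8% for domains of 5 to 7.5 kb, 56.9% for 7.5 to 10 kb, 58.9% for 10 to 20 kb, 69.8% for 20 to 50 kb and 87.1% for 50 kb or more. From the shortest to the longest class it went from 75.5 to 93.3% in doxycycline replicate 2 and from 60.1 to 90.7% in NCCIT. The boundaries were shared less than the interiors. In the first 250 bp inside an edge, peaks of no doxycycline replicate 1, doxycycline replicates 1 and 2 and NCCIT covered 49.6, 26.6, 56.2 and 34.8% of bases, and at 2 kb inside they covered 81.4, 62.5, 81.1 and 67.7%. At 10 kb outside the shares were 14.3, 9.27, 15.3 and 11.2%, with bases of any neighbouring domain counted. The 2.71 to 4.54% of the genome outside domains leaves such bases out, so the 2 sets of shares are not directly comparable.

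**Figure D2:**
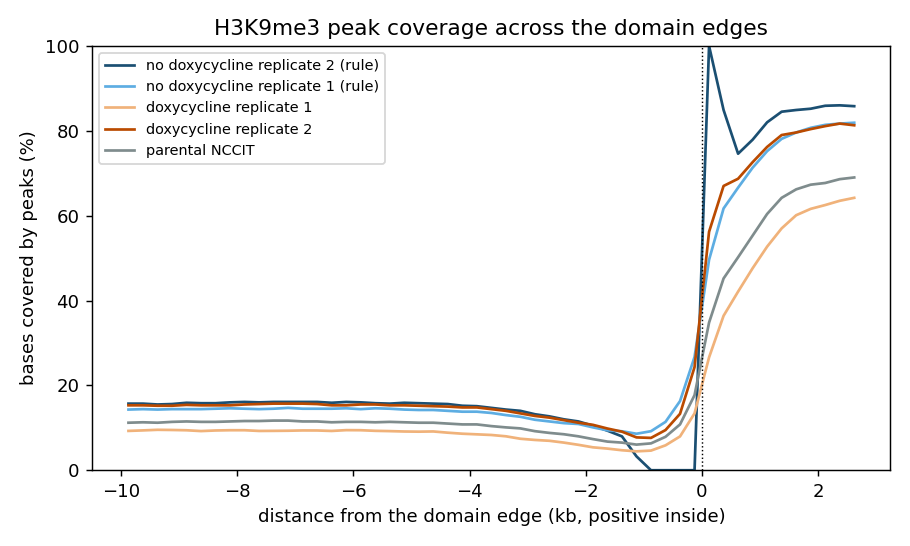
Percent of bases covered by H3K9me3 peaks in each library against distance from the domain edge (kb, inside positive), averaged over both edges of all domains. No doxycycline replicate 2 steps to 100% at the edge because it defined it, and the other 4 libraries rise to between 62.5 and 81.4% at 2 kb inside.

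Many domains shared short sequences. At least 1 of the 8 was held by 3744 domains (46.2%) and by 10% of the 390688 tiles, a contrast that the choice of the 24-mers fixed. S1 was held by 1377 domains (17% against 4.58% of tiles), S3 by 1187, S6 by 777, S2 by 702, S4 by 391 (4.82% against 0.447%), S8 by 379, S7 by 368 and S5 by 319. The L1-type 24-mers S1, S3 or S6 were held by 2146 domains (26.5%), and 74 of the 391 S4 domains also held one. Where a domain held S6 and S3, the median distance from S6 to S3 was 3816 bp (interquartile range 3809 to 3822 bp, 360 domains), with S3 downstream in 352. S1 lay 4472 bp from S6 (369 domains) and 658 bp from S3 (657 domains). These fixed distances, within 100 bp of the median in 305, 297 and 632 domains, give the order S6, S3, S1 along one element.

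Domains with S4 had higher H3K9me3 coverage with doxycycline than the other domains, in both replicates. S4 domains were covered over 86.4% of bases in no doxycycline replicate 2 and 84.9% in replicate 1, against 86.3 and 77.7% in other domains. With doxycycline they were covered over 76.8 and 86.8% in replicates 1 and 2, against 57.6 and 78.3%, and in NCCIT over 66.5%, against 64.9%. From no doxycycline to doxycycline, coverage of S4 domains moved by -8.1 percentage points in replicate 1 and 0.4 in replicate 2, and that of the others by -20.1 and -7.9. The difference was 11.9 and 8.3 points, while those of the other 7 24-mers lay between -1.8 and 1.5 in replicate 1 and between -1.9 and 1.9 in replicate 2. The no doxycycline values are those of the libraries that chose the domains, and S4 was picked for its share of these domains. The falls therefore follow in part from the rule, and S4 domains were already higher in no doxycycline replicate 1. How much of the difference this makes up was not tested. There is 1 difference for each replicate number, so it was not tested, and an exact test of 2 against 2 libraries could not reach a p under 0.33. Of the 391 S4 domains, 30 were less than 50% covered in doxycycline replicate 1 and 0 in doxycycline replicate 2.

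The strongest peaks showed the same order. The median fold of a domain's strongest peak was 9.31 in S4 domains and 9.7 in others in no doxycycline replicate 2, 16.9 and 10 in no doxycycline replicate 1, 17.3 and 8.19 in doxycycline replicate 1, 9.95 and 8.62 in doxycycline replicate 2, and 6.87 and 6.8 in NCCIT. Without doxycycline, S4 domains were above the others in replicate 1 but not in replicate 2. Around S4 itself, 375 bp downstream of the 24-mer, peaks covered 89.5 and 98.4% of S4 domains in no doxycycline replicates 2 and 1, 99 and 93.5% in doxycycline replicates 1 and 2, and 79.6% in NCCIT. On the upstream side, at 375 bp, the shares were 81.8, 80.6, 85, 95.2 and 49.9%, with NCCIT lowest. When domains were built from the doxycycline libraries instead, 803 of 7912 held S4, or 10.1%, against 4.82% of those built from untreated cells. Those domains were chosen on doxycycline peaks, which favours regions high with doxycycline, so the 2 shares are no test of a change. Of the 635 SVAs listed by the submitters, 3 shared bases with a domain, a count with little to say of SVAs in general since the list was chosen for de-repressed copies.

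**Figure D3:**
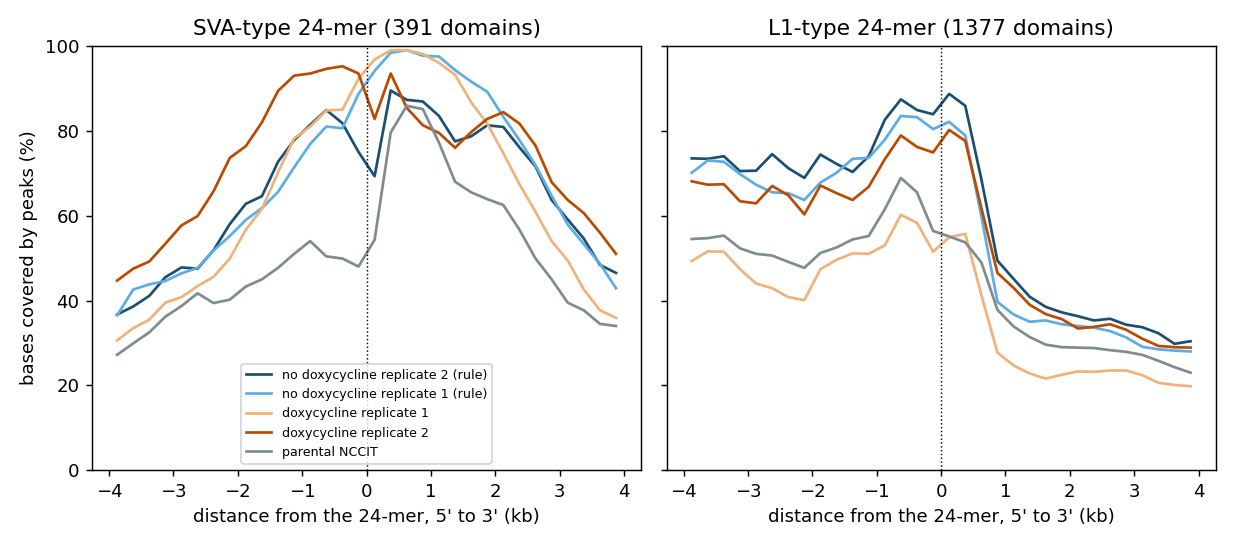
Percent of bases covered by H3K9me3 peaks in each library against distance from the 24-mer (kb, read 5′ to 3′), in the 391 domains with S4 (left) and the 1377 with the L1-type S1 (right). Within 1 kb upstream of S4 NCCIT is the lowest line and doxycycline replicate 2 the highest, and around S1 doxycycline replicate 1 is the lowest line over most of the window and all lines drop within 1 kb downstream.

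Summits of YY1, a zinc finger transcription factor, and of OCT4, the pluripotency factor encoded by POU5F1, were denser in the domains than outside. YY1 summits were 1.2 and 1.62 times as dense in the domains as in the rest of the genome in no doxycycline replicates 1 and 2, and 1.29 and 1.63 times with doxycycline. The means were 1.41 ± 0.297 (SD, n = 2) and 1.46 ± 0.24 (SD, n = 2), and the difference of 0.05 was smaller than either spread (two-sided exact permutation test, p = 0.67, smallest p possible 0.33). A YY1 peak overlapped 18.8 and 29.1% of domains without doxycycline and 27.8 and 41.1% with it. These libraries held 56110, 75849, 81666 and 115345 summits in all. OCT4 summits were 1.79 times as dense in the domains without doxycycline and 2.29 times with it, in 1 library each. An OCT4 peak overlapped 22.1 and 11.4% of domains, as the library totals went from 50582 to 23106 summits.

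In S4 domains, YY1 summits were denser than in other domains, at 36 against 22.7 per Mb and 52.6 against 41.7 per Mb in no doxycycline replicates 1 and 2. With doxycycline the densities were 59 against 35.3 and 71.3 against 64.2 per Mb. OCT4 summits were at 26.2 against 31.4 per Mb without doxycycline and 8.01 against 18.5 per Mb with it. Within 500 bp of S4, a YY1 summit was found in 77 and 79 domains without doxycycline and 115 and 105 with it, and an OCT4 summit in 35 without and 2 with it. The OCT4 values come from single libraries of unequal size, and no test was made.

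The domains held few gene starts. A TSS lay inside 611 domains (7.54%), 1100 (13.6%) overlapped an exon but no TSS, 3147 (38.8%) lay in introns alone and 3247 (40.1%) overlapped no gene. Of 64439 annotated genes, 728 (1.13%) had a TSS inside, 3919 overlapped a domain with their body and 513 lay inside whole. TSSs stood at 10.4 per Mb in the domains and 22.5 per Mb over the whole genome, domains included, and those of protein-coding genes at 0.77 and 7.05. The 728 were 219 processed pseudogenes (2.17% of that type), 187 lncRNAs (1%), 58 unprocessed pseudogenes (2.3%), 55 miRNAs (1.81%), 54 protein-coding genes (0.268%) and other types. Domain sequence was 39.9% GC against 40.9% of the genome, with a CpG observed to expected ratio of 0.197 against 0.236.

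Families of arrayed genes were among those inside. Of 61 clustered protocadherins, neuronal adhesion proteins expressed from alternative promoters, 9 (14.8%) had a TSS inside and 23 (37.7%) a body overlap. Of 390 annotated genes outside chromosome 19 whose symbol begins with ZNF and a number, 16 (4.1%) had a TSS inside and 137 (35.1%) a body overlap. The 16 included antisense and divergent transcripts such as ZNF232-AS1 and ZNF454-DT and pseudogenes such as ZNF322P1, and the remainder were ZNF454, ZNF479, ZNF572, ZNF679, ZNF722, ZNF727 and ZNF735. HOX genes (39), histone genes (58), 30 germ layer transcription factors and 129 X-linked cancer-testis genes had 0 TSSs inside, and of 865 olfactory receptors 5 did. Among 36 imprinted genes the 1 inside was L3MBTL1, and among 30 germline genes it was DAZL. Of the paternally expressed SNORD116 small nucleolar RNAs of the Prader-Willi region, 9 of 25 lay in chr15:25287023-25320546 (33524 bp), covered over 95.3, 98.5, 95.8, 97.4 and 92.4% of bases in no doxycycline replicates 2 and 1, doxycycline replicates 1 and 2 and NCCIT. SNORD115 had 3 of 44 copies in chr15:25416872-25422596 (5725 bp), covered over 81.7, 100.0, 98.2, 73.6 and 93.2%. All 3 MIR514A genes lay in chrX:146354832-146366741 (11910 bp), and MIR526B, MIR519B, MIR525 and MIR523 of the placental miRNA cluster in chr19:54194574-54203076 (8503 bp). These small RNAs were not measured by the RNA-seq table, which held 3 of 5274 small RNA genes.

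Genes that started inside domains mostly had little or no RNA. In bulk RNA, fewer cells expressing a gene and less RNA per cell cannot be told apart. Of the 728 genes, 377 were measured, and in untreated cells 43 of them (11.4%) averaged 1 TPM or more, against 38% of 36072 measured genes. The share was 10.6, 10.1 and 10.3% in the untreated libraries and 9.81, 10.1 and 10.3% with doxycycline, so that the conditions overlapped. A further 196 (52%) were listed at 0 in all 3 untreated libraries, against 36.2% of all genes. This contrast did not hold within each gene type. The share at 0 was 15.7% inside against 8.83% over all protein-coding genes. It was 62.6% against 73.2% for processed pseudogenes, and 16.7% against 25.3% for lncRNAs, of which 12 inside were measured. Of 51 measured protein-coding genes with a TSS inside, 13 averaged 1 TPM or more (25.5%), and in the untreated libraries 29.4, 25.5 and 25.5% reached it, against 64.9, 64.6 and 64.4% of all protein-coding genes. Processed pseudogenes went the other way, with 5.02, 4.57 and 4.11% inside domains and 2.46, 2.33 and 2.28% over all of that type, and their short sequences share reads with their parent genes.

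Among the 13 expressed protein-coding genes, 11 had their most expressed transcript starting outside the domain and 2, ANKRD30BL and SMIM8, inside. The glycyl-tRNA synthetase gene GARS1 had the highest level of the protein-coding genes, and its annotated start lay 3092 bp inside chr7:30609538-30623241, while its most expressed transcript (168.2 TPM of 182.5) started 11253 bp outside. KDM3A, a demethylase of lysine 9 of H3, started 74 bp inside chr2:86662355-86667844 and its most expressed transcript 650 bp outside. SSR1 (31478 bp outside), GORASP2 (394 bp), VBP1 (17867 bp), CDK10 (4257 bp) and L3MBTL1 (24157 bp) had the same layout. The promoter of KDM3A is printed on hg19, 5′ to 3′, for both starts, from 250 bases before to 50 after, because the inside and outside starts differed in CG content. Capitals mark CG.
KDM3A, start inside, chr2:86667520-86667819, plus strand: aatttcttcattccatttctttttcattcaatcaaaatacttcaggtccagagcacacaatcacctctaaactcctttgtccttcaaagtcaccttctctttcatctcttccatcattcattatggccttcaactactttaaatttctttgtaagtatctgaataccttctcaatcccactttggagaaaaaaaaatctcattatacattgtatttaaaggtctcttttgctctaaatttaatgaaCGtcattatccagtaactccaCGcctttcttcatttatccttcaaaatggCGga
KDM3A, most expressed transcript, chr2:86668244-86668543, plus strand: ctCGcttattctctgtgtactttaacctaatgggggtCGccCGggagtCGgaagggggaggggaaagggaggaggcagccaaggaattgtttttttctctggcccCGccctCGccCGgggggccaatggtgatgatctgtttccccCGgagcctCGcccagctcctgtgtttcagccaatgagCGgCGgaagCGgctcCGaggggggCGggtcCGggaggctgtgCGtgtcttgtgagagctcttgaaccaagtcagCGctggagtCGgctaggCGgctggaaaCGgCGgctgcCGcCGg
The window inside the domain held 3 CG (33.7% GC) and the one outside it 23 (64% GC).

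The RNA comparison asked whether genes starting inside domains changed with doxycycline. Of the 377 measured genes 61 had counts enough to be tested by edgeR's quasi-likelihood test, and 4 (6.56%) were called at a Benjamini-Hochberg adjusted p under 0.05 over all genes, with 2 higher and 2 lower, against a background of 17.4% of 16358 genes. Of the 61, 13 had an unadjusted edgeR p under 0.05, against 5305 of all 16358 tested genes. The 4 became 2 without no doxycycline replicate 2, the library of 31905915 estimated counts, and 7 without no doxycycline replicate 1, the shallowest at 14683468, and DESeq2 called 2. Nothing in the labels says that the RNA libraries came from separate cultures, so p-values measure the spread between these libraries, which may be technical. MTATP6P1, a nuclear copy of the mitochondrial ATP synthase gene, measured 723.0, 822.4 and 835.9 TPM without doxycycline and 1275, 1577 and 1430 with it. The groups did not overlap, and it was higher by a log2 fold change of 0.90 ± 0.09 (SE, edgeR adjusted p = 0.000288). Its reads cannot be told apart from those of the mitochondrial gene. The processed pseudogene ENSG00000248452 was listed at 0, 0.0284 and 0 TPM without doxycycline and measured 0.607, 0.559 and 0.504 TPM with it (edgeR adjusted p = 0.000462).

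The 2 lower genes were CLEC6A and GARS1. CLEC6A, a C-type lectin receptor of myeloid cells, measured 0.292, 0.417 and 0.297 TPM without doxycycline and 0.111, 0.0341 and 0.0365 with it, a log2 fold change of -2.40 ± 0.49 (SE, edgeR adjusted p = 0.0109). GARS1 measured 175.3, 192.2 and 180.0 TPM without doxycycline and 147.8, 147.8 and 151.7 with it, a log2 fold change of -0.23 ± 0.05 (SE, edgeR adjusted p = 0.0145). Neither pair of groups overlapped, but the GARS1 call was lost without no doxycycline replicate 2 or 3 or doxycycline replicate 1 (edgeR adjusted p = 0.0649, 0.0517 and 0.058), and the CLEC6A call without no doxycycline replicate 2 or doxycycline replicate 2 (0.0573 and 0.0529). The 2 genes called by DESeq2 were GARS1 and MTATP6P1, the same as with at least 10 counts in every library. CLEC6A and ENSG00000248452 had no adjusted p in either setting, so their calls were not tested there. The call of ENSG00000248452 was kept in the 9 alternatives that gave it an adjusted p. KDM3A measured 25.7, 24.2 and 25.9 TPM without doxycycline and 21.7, 20.2 and 24.4 with it. Its log2 fold change was 0.00 (edgeR adjusted p = 0.992). That value came from TMM-scaled summed counts, which unlike TPM are not scaled by transcript length. DAZL, an RNA-binding protein of germ cells, whose TSS lay in chr3:16710411-16738922, measured 1.53, 0.786 and 0.568 TPM without doxycycline and 0.358, 0.423 and 0.424 with it. Its log2 fold change of -0.89 ± 0.30 did not pass (edgeR adjusted p = 0.0686). The other genes of highest TPM inside domains were not called. SSR1, a subunit of the translocon-associated complex of the endoplasmic reticulum, measured 111.3, 116.6 and 123.7 TPM without doxycycline and 123.7, 124.6 and 143.2 with it (log2 fold change 0.18 ± 0.07 SE, edgeR adjusted p = 0.123). GORASP2, a Golgi stacking protein, measured 74.9, 78.7 and 79 TPM and 80.2, 81.1 and 88.9 with doxycycline (0.13 ± 0.05, edgeR adjusted p = 0.126). The prefoldin subunit VBP1 and the kinase CDK10 had overlapping groups, with VBP1 at 51 to 61.5 TPM without and 55.5 to 60.3 with doxycycline and CDK10 at 49.5 to 59.1 and 52.7 to 59.5. The processed pseudogene ENSG00000249072 varied within groups, at 44.4, 186.7 and 107.5 TPM without doxycycline and 70.7, 715.3 and 35.6 with it. MTND2P28 and MTND1P23, which share the domain of MTATP6P1, measured 46.9 to 69.1 and 29.4 to 42.4 TPM without doxycycline and 56.4 to 68.7 and 36.8 to 46.2 with it, and both had overlapping groups.

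Genes of arrayed families inside domains were low in every library. None of the 8 tested protocadherins and 4 tested ZNF genes with a TSS inside was called by edgeR, against 17.4% of all tested genes and 1 of 48 tested protocadherins of the whole list, and the protocadherins' median log2 fold change was -0.27 against -0.00 over all tested genes. PCDHGA11 was the highest protocadherin, at 0.777, 0.968 and 0.977 TPM without doxycycline and 0.616, 0.623 and 0.906 with it (log2 fold change -0.38 ± 0.19 SE, edgeR adjusted p = 0.197). PCDHGA8 measured 0.446, 0.292 and 0.374 TPM and 0.278, 0.269 and 0.278 with doxycycline (-0.43 ± 0.20, edgeR adjusted p = 0.181). The groups overlapped for PCDHGA11 and not for PCDHGA8. Of the ZNF genes, ZNF727 measured 0.677, 0.752 and 0.717 TPM and 0.579, 0.627 and 0.621 with doxycycline (-0.19 ± 0.11, edgeR adjusted p = 0.251), and ZNF454 0.594, 0.381 and 0.63 and 0.463, 0.461 and 0.857 (0.14 ± 0.25, edgeR adjusted p = 0.743). Members of these families resemble each other in sequence, so the split of reads between them is uncertain. The imprinted gene L3MBTL1, a chromatin compaction protein, measured 17.5, 15.1 and 16 TPM and 16.3, 13.8 and 15.7 with doxycycline, with overlapping groups.

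Genes whose bodies overlapped domains had more lower than higher calls. Of 3919 such genes 1839 were tested, and 85 (4.62%) were higher and 234 (12.7%) lower, with a median log2 fold change of -0.07. Over all tested genes 8.92% were higher and 8.49% lower, and the genes without overlap gave 9.46% higher and 7.96% lower with a median of 0.01. Gene length moved with this, with medians of 90521 bp and 2640 bp over all annotated genes with and without overlap, tested or not. For annotated protein-coding genes the medians were 130750 bp and 23064 bp. Lower genes made up 8.59% against 5.76% of those under 25 kb, 11.7% against 9.44% at 25 to 100 kb, 14.7% against 11.2% at 100 to 300 kb and 11.7% against 11.3% at 300 kb or more, overlapping against not. The 234 fell to 113 and 134 without no doxycycline replicates 2 and 3 and to 136 and 110 without doxycycline replicates 1 and 2, and the 85 to 46, 56, 56 and 39. The difference between overlapping and other genes was not tested.

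Genes over S4 domains had a larger share of lower calls than those over other domains, without a test of that difference. Of 307 such genes 180 were tested, 4 (2.22%) were higher and 39 (21.7%) lower, and their median log2 fold change was -0.12. Genes over other domains gave 82 of 1745 higher (4.7%) and 220 lower (12.6%), and a gene over both kinds was counted in both. The 39 fell to 19 without no doxycycline replicate 2 or 3 and to 21 without doxycycline replicate 1 or 2. The genes named here were chosen after their values were seen. CHI3L2, a chitinase-like protein, measured 22.7, 23.7 and 23.3 TPM without doxycycline and 3.64, 2.41 and 1.92 with it, a log2 fold change of -3.17 ± 0.15 (SE, edgeR adjusted p = 2.23e-06). Its domain chr1:111773572-111784332 lay 30.2 kb from the TSS and was covered over 83.7 and 60.4% without doxycycline in replicates 2 and 1, and 62.2 and 73.2% with it. LYPLA1, which removes palmitate from proteins, measured 135.5, 147.1 and 142.1 TPM and 71.1, 74.1 and 77.1 with doxycycline, a log2 fold change of -0.91 ± 0.05 (SE, edgeR adjusted p = 9.97e-06). KDM4C, a demethylase of lysine 9 of H3 and a member of the chosen list of H3K9 proteins, measured 30.3, 28.6 and 29.3 TPM and 19.2, 18.3 and 18.9 with doxycycline, a log2 fold change of -0.68 ± 0.06 (SE, edgeR adjusted p = 7.88e-05). Its domain chr9:6797599-6806848 lay 76.7 kb from the TSS and was covered over 79.3, 82.6, 76.9, 90.2 and 31.1% in no doxycycline replicates 2 and 1, doxycycline replicates 1 and 2 and NCCIT. In these 3 genes every doxycycline library was below every untreated one, which their choice by value favoured.

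Other lower genes over S4 domains were MYRFL (log2 fold change -1.80), ARFGEF1 (-1.01), SCN8A, a neuronal sodium channel (-0.92), JARID2, a partner of Polycomb complex PRC2 (-0.61), and ERBIN (-0.51). The 4 higher genes were EMILIN2 (0.35), CNBD2 (0.54), PLCB4 (0.58) and ENOX1 (1.13).

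Of the 25 H3K9 proteins on the list, 4 overlapped a domain with their body and all 4 were tested, and 1, KDM4C, was lower. Of the whole list, 6 of 25 tested genes were lower, against 8.49% of all tested genes and 12.7% of those over domains. Of the 115 tested ZNF genes over domains 1 was higher and 16 lower, a lower share near the 12.7% of all genes over domains and near that of the whole ZNF list, in which 31 of 260 were lower. Of 20 tested protocadherins over domains 0 were called by edgeR, against 1 of 48 in the whole list. Of 4 tested germline genes over domains 1 was lower, against 3 of 16 in the whole list and 8.49% of all tested genes.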

How the data were processed

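ChIP-seq for 3 proteins or marks and RNA sequencing were done on the NCCIT and SCi-NCCIT cells described above. Per the labels and the methods, the authors trimmed ChIP reads with TrimGalore!, aligned them to hg19 with BWA MEM, kept reads above a mapping quality limit, removed duplicates and called peaks per library at a fixed false discovery rate. The peak caller and the H3K9me3 background control are not given in the sources used here. The deposited peak lists give fold enrichment (a ratio), −log10 p and q values and summit positions, and no read depth. The authors quantified RNA with kallisto, and the deposited tables hold estimated counts and TPM per transcript.

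Peaks were joined and measured with Python 3.11.15, pysam 0.24.0, an hg19 (GRCh37) genome and the GENCODE annotation lifted to it. A domain base was covered if any peak of a library held it. ChIP libraries without a number in their label were called replicate 1. TPM was summed per gene, and 166506 of 188753 transcripts (88.2%) matched the annotation. Rounded estimated counts were summed per gene, filtered by edgeR's filterByExpr, scaled by TMM and tested with edgeR 4.0.16's quasi-likelihood test over all genes, SCi-NCCITs with against without doxycycline. The standard error of a log2 fold change was its size divided by the square root of the F value. The test was checked on simulated data. Replicates of a group differed by more than sampling noise (chi-square per gene 7.43 to 14.6).

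Named domains were the longest, those of highest fold and those lowest with doxycycline. Named genes were those called with a TSS inside, those of highest TPM and listed genes with a TSS inside. The members and lists were chosen with earlier results of these data known, and the period classes, the 24-mers and the genes over S4 domains after values were seen. Alternatives covered the joining rule, the peak sets, normalization, filters, DESeq2 1.42.0, the replicate block and leaving out libraries. The period class took 6 bp either side of the commonest period above 100 bp (172 bp) in domains of 20 kb or more. The HiChIP table of the series was not used. Some sequences of the domains are not reported here.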

Additional observations from a re-analysis of the deposited data

How the results depend on the processing

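The number of domains was within 1.5 times of 8138 under 11 alternatives, and 1598 domains remained at a minimum length of 10000 bp. Coverage of the domains in no doxycycline replicate 1 (78%) was 85.2% with a join distance of 500 bp and 69.6% with 2000 bp. It was 78% when that library was left out of the rule. With the replicates exchanged, or no doxycycline replicate 2 left out, replicate 1 itself defined the domains and covered 88.9 and 88.8%. No doxycycline replicate 2 then covered 79.4 and 79.3%. The coverage difference of S4 domains, averaged over both pairs (10.1 points), was 6.25 at a minimum length of 10000 bp. It was 21.8 in domains built from the doxycycline libraries, a choice that favours regions high with doxycycline. Both settings were chosen after seeing the data. The difference was 8.28 and 11.9 with replicate 1 or replicate 2 of both conditions left out. It was 10.1 and 9.05 without no doxycycline replicate 1 or 2. It moved by less than the spread between pairs with an equal number of strongest peaks (123014) in each library.

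The count of called genes with a TSS inside (4) was 2 with at least 10 counts in every library, 2 with DESeq2, 2 for protein-coding genes, 1 for genes lying inside whole and 319 for genes with a body overlap, and 2 to 7 with single libraries left out. Alternatives for the body overlap were chosen after seeing the data. Leaving out single libraries gave 110 to 314 lower genes, 39 to 92 higher genes and 19 to 56 lower genes over S4 domains. Libraries with the same number did not deviate together (correlations 0.13, 0.08 and -0.00094). With the replicate block 5 genes with a TSS inside were called, and body overlap gave 296 lower and 99 higher genes, with 52 lower over S4 domains. The share of genes inside at the TPM limit (11.4%) was 26.3% at 0.1 TPM, against 51.3% of all genes, and 10.1 to 11.4% with single libraries left out. The YY1 density difference (0.05) became -0.16 without no doxycycline replicate 1 and -0.12 without doxycycline replicate 2, and ranged from -0.16 to 0.26. The causes were not tested. Unknown ChIP depth limits all coverage values.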
